A study of Mus musculus with 18 samples.

Results

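The genes of the proteasome were described in 18 bulk RNA sequencing libraries of mouse oocytes. A gene was a member where its symbol in the deposited TPM table (reads per unit of gene length, set to the same total in each library) began with Psma, Psmb, Psmc, Psmd, Psme, Psmf or Psmg, which gave 52 symbols. After 2 symbols of pseudogenes were dropped, 50 genes of the 28252 with a TPM value remained, and all 50 were found in the table of read counts for 53715 genes. Of these 50 genes, 1 carries the prefix for another reason. It is Psmc3ip, a cofactor of meiotic recombination that is not a proteasome subunit. Its level is described by itself, but the sums, counts, shares and medians given below for proteasome genes include it.

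The libraries fall into 6 groups of 3. Primordial follicle oocytes, primary follicle oocytes and MII oocytes (arrested in metaphase of the second meiotic division) were each sequenced in a sham group and in an NTY group, a name that the labels do not explain. All came from mice of the strain C57Bl/6j x CBA/J, were marked in vivo and carry no other treatment or allele in the labels, and no ages are given. By the labelled protocol, cells cut from tissue with a laser were pooled by oocyte stage, amplified linearly and enriched for coding RNA, whereas collected oocytes went through Smart-seq II. The 12 early follicle libraries were read as microdissected and the 6 of MII oocytes as collected, so what comes of the stage and what of the library preparation cannot be told apart. Nothing in the labels says that replicates came from separate animals, so p-values measure only the spread between these libraries.

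The proteasome is the protease that removes most proteins marked with ubiquitin. Its barrel, the 20S core, is built of alpha subunits, which gate the ends, and beta subunits, of which a few carry the proteolytic sites inside. The 19S cap binds ubiquitin chains, cuts them off and threads the substrate in with a ring of ATPases, dedicated chaperones assemble both parts, and other activators can take the place of the cap. In oocytes, timed proteolysis by this machine drives the meiotic divisions.

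Total counts were 15149564 to 29205503 in the microdissected libraries and 8652089 to 9978830 in MII. The 16 oocyte markers sum to between 7400 and 11480 TPM in MII but only to between 3.92 and 2120 TPM in microdissected libraries, and the lowest value belongs to primordial NTY 3, which also holds 3451 TPM of 12 granulosa cell markers and 5802 TPM of 6 stromal markers. The 12 libraries labelled as oocytes of early follicles hold 380 to 3923 TPM of granulosa and 460.1 to 7486 TPM of stromal markers, against at most 62.4 and 1.29 TPM in MII. The part of these cells in the values below was not tested, and in bulk samples fewer cells of a type and less RNA per cell cannot be told apart. The library codes of primary NTY 2 and 3 differ only by an added digit, and whether they come from the same material is not stated.

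The proteasome genes together took a larger share of the microdissected libraries than of MII oocytes, with no overlap. Their summed level ran from 5313 TPM in primary NTY 3 to 10150 TPM in primary sham 2, and from 1867 TPM in MII sham 1 to 3393 TPM in MII sham 3. As a share of all TPM that is 0.531% to 1.01% against 0.187% to 0.339%. Within each stage the sham and NTY sums overlapped. In primordial follicles they were 6393 to 7375 TPM in sham and 5695 to 9960 TPM in NTY, in primary follicles 7759 to 10150 TPM and 5313 to 7933 TPM, and in MII 1867 to 3393 TPM and 1952 to 3316 TPM. MII sham 1 and MII NTY 3 sit at 1867 and 1952 TPM, and the other MII libraries at 3082 TPM or more. MII sham 1 had the lowest level of its group for 35 of the 45 proteasome genes that reached 1 TPM there (77.8%, against 60.6% of all such genes), and MII NTY 3 for 26 of 42 (61.9%, against 37.8%).

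**Figure D1:**
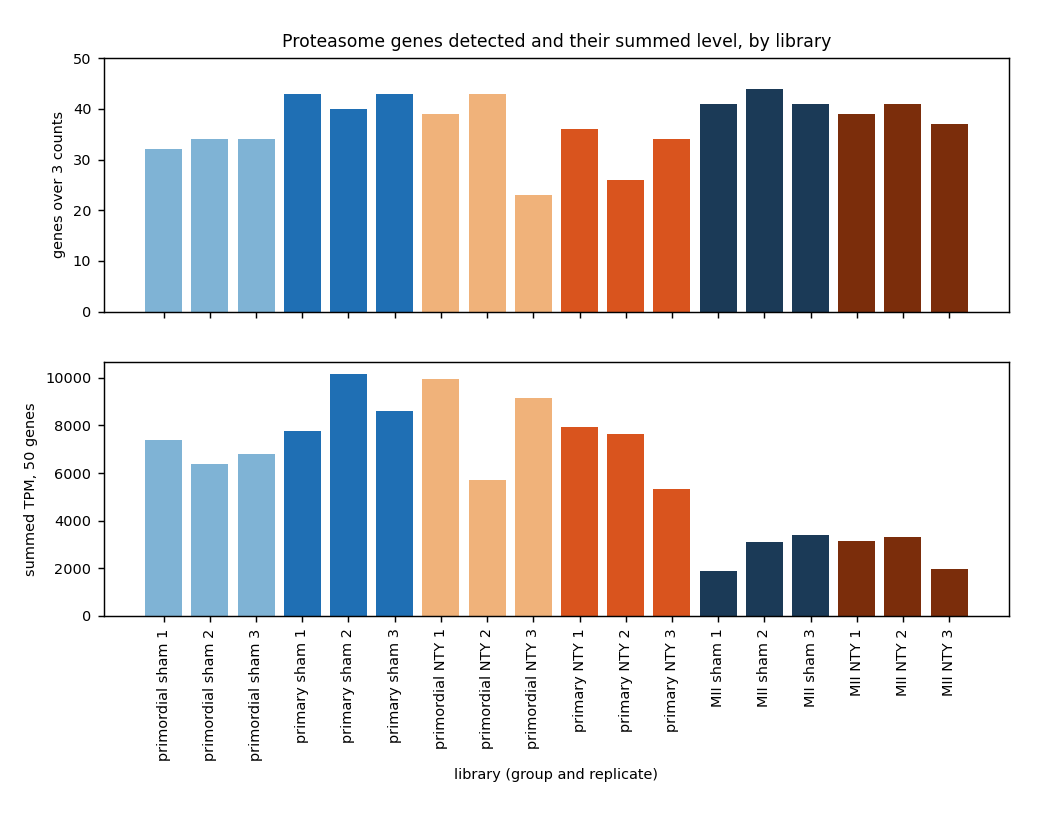
Proteasome genes detected and their summed level. The upper bars give the number of the 50 genes with more than 3 read counts in each of 18 libraries (y axis, genes), the lower bars their summed TPM (y axis, TPM), with the colours marking the 6 groups. Primordial NTY 3 holds 23 genes and primary NTY 2 holds 26, the fewest, yet their sums of 9154 and 7659 TPM lie within the range of the other microdissected libraries, all above the 6 MII libraries.

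The number of proteasome genes detected differed far more between microdissected replicates than between MII replicates. With more than 3 counts as the limit (a count of 0 allows up to 3, and this covers counting error only), 34 of 50 genes were found in all 6 MII libraries but only 12 in all 12 microdissected libraries, although these are deeper. Those 12 were Psma7, Psmb2, Psmb6, Psmc2, Psmc3, Psmc4, Psmc6, Psmd1, Psmd2, Psmd3, Psmd4 and Psme4, and all but Psmc2 were also found in every MII library. Without primordial NTY 3 the count over the microdissected libraries was 15, and without primary NTY 2 as well it was 21, a comparison chosen after seeing the data. In primordial NTY 3, 21 proteasome genes had no read at all, while Psmc3 reached 37309 counts, Psmd1 41939 and Psmd8 31546. Being found in all 12 libraries is a stricter demand than being found in all 6, and the loss was not confined to proteasome genes. Over all genes, 6147 to 13755 had a count in a microdissected library and 12782 to 18239 in an MII library. Primordial NTY 3 had 6524 such genes and primary NTY 2 had 7474.

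A subunit could have a high count in 1 replicate and none in the next. Of the 36 proteasome genes with at least 1000 counts in a primordial NTY library, 16 had at most 3 in another replicate of that group (44.4%, against 40.8% of all genes), and in primary NTY 10 of 30 did (33.3%, against 40.5%). In primordial sham the share was 8 of 31 (25.8%, against 41.2%) and in primary sham 2 of 35, namely Psma1 and Psma3 (5.71%, against 14.3%). No proteasome gene did this in MII, where 13 reached 1000 counts in either group (0.0% of all genes in sham and 0.0434% in NTY did). Among genes with a group mean of at least 10 TPM, the median coefficient of variation (SD over mean) of the proteasome genes was 101% in primordial sham, 64.6% in primary sham, 118% in primordial NTY and 118% in primary NTY, against 126%, 83.0%, 117% and 127% for all genes. In MII it was 43.2% in sham and 41.2% in NTY, against 31.0% and 39.4% for all genes.

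**Figure D2:**
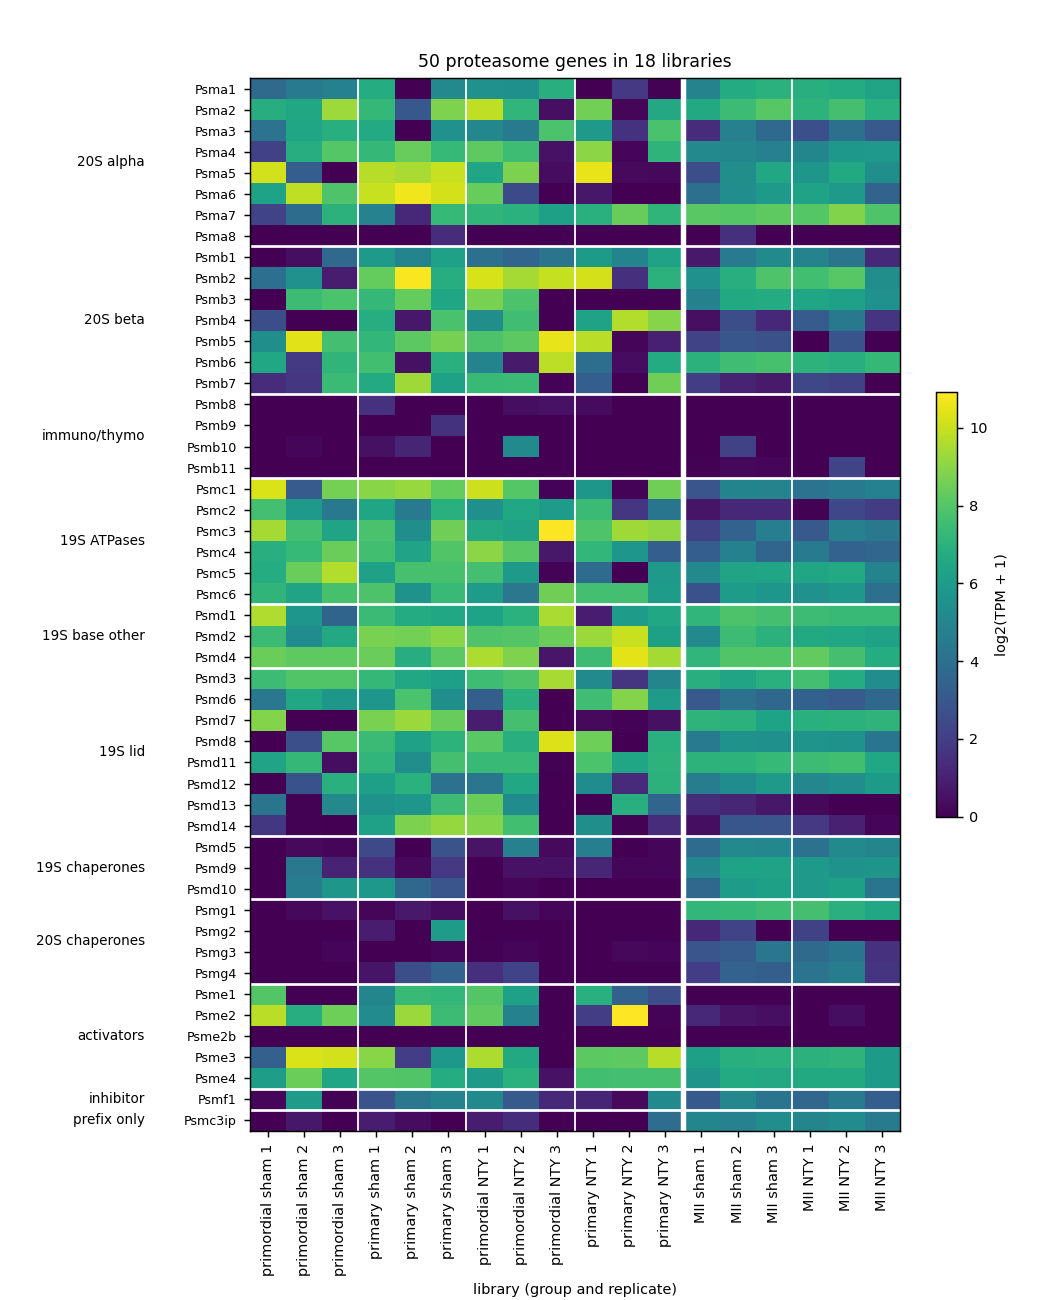
Level of each proteasome gene in each library. Rows are the 50 genes grouped by role, columns the 18 libraries with the thick white line before MII, and the colour gives log2(TPM + 1). In the 12 microdissected columns bright and dark cells alternate within a group, whereas the MII columns vary less. Psmg1 is bright only in MII, Psmd9 is brighter in each MII column than in any other, and Psme1 is at 0 in MII.

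RNA of every somatic subunit of the alpha ring was detected in MII oocytes, at unequal levels. All 7 somatic alpha subunit genes, Psma1 to Psma7, had more than 3 counts in each MII library. By its median over the 6 libraries Psma7 led all 50 genes there, with 273, 258 and 295 TPM in the sham libraries and 263, 452 and 236 TPM in NTY. Psma2 followed at 99.3 to 266 TPM and Psma1 at 28.7 to 125 TPM, whereas Psma3 was the lowest of the 7 at 1.64 to 26.2 TPM. The 7 subunits occupy equal places in the ring, yet the medians of Psma7 and Psma3 differed 27.5-fold. Psma3 has 3 near-identical pseudogenes, among them Gm13835, which is identical to it over 665 bases. How reads that match both were counted is not stated, so the level of Psma3 is uncertain and the size of this gap as well. The same doubt holds for the other genes with near-identical copies, which are named with the processing. In the microdissected libraries the order was another, with Psma5 leading at a median of 260 TPM and a range from 0.0 to 1494 TPM. Psma8, the alpha subunit of the testis, was at 0 in 16 of the 18 libraries and reached 1.62 TPM in primary sham 3 and 1.85 TPM in MII sham 2.

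The beta ring showed a split among the proteolytic subunits in MII. Psmb6, which carries the caspase-like site, stood at 129, 191 and 214 TPM in MII sham and at 134, 115 and 155 TPM in MII NTY. Psmb5, with the chymotrypsin-like site, was at 3.69, 6.63 and 5.46 TPM in MII sham and at 0.0, 6.08 and 0.0 TPM in MII NTY. Psmb7, with the trypsin-like site, was at 2.98, 1.08 and 0.717 TPM in sham and at 4.02, 3.28 and 0.0 TPM in NTY. Psmb6 was thus above both of the other catalytic genes in each of the 6 MII libraries. In the microdissected libraries no such order held. Psmb5 had a median of 258 TPM there, from 0.156 to 1454 TPM, Psmb7 87.2 TPM, from 0.0409 to 650 TPM, and Psmb6 60.4 TPM, from 0.299 to 907.5 TPM. In primary NTY 2 the 3 genes together had 6 reads among 23268600. Of the beta subunits without a proteolytic site, Psmb2 led in MII at a median of 155 TPM, Psmb3 had 79.1 TPM, Psmb1 19.2 TPM and Psmb4 3.68 TPM.

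The counts of Psmb5 need care, because 2 other counted features share its sequence. The gene lies at chr14:54614119-54618022 on the minus strand (GENCODE M21 on GRCm38). The microRNA gene Mir686 lies wholly inside its coding exon 2 (chr14:54616515-54616821) on the same strand, and its hairpin of 109 bases is found letter for letter in a Psmb5 transcript. The hairpin (chr14:54616677-54616785, RefSeq, GRCm38.p6) and the mature microRNA within it (chr14:54616746-54616767) are shown because a read that lies within them matches both genes. Capitals mark the seed, bases 2 to 8 of the mature form.
Mir686 hairpin: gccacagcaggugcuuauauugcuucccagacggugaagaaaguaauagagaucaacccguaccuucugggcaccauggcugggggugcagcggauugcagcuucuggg
mmu-miR-686: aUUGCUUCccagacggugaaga

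Reads were counted on both genes in the deposited table. In primordial sham 2 the file holds 10364 counts for Psmb5 and 8708 for Mir686, in primary NTY 1 it holds 6292 and 5374, and in primary sham 2 it holds 1939 and 1900. In primordial NTY 3, by contrast, Psmb5 has 10309 counts and Mir686 none, and in primary sham 1 the values are 913 and 14. The count of Mir686 was at or below that of Psmb5 in all 18 libraries. The pseudogene Gm3375, which is 98.9% identical to Psmb5 over 796 bases, has 2812 counts in primordial sham 3, more than the 1171 of Psmb5 there, and at most 7 in the other libraries. How reads that match several features were counted is not stated in the sources used here, so the level of Psmb5 is uncertain.

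**Figure D3:**
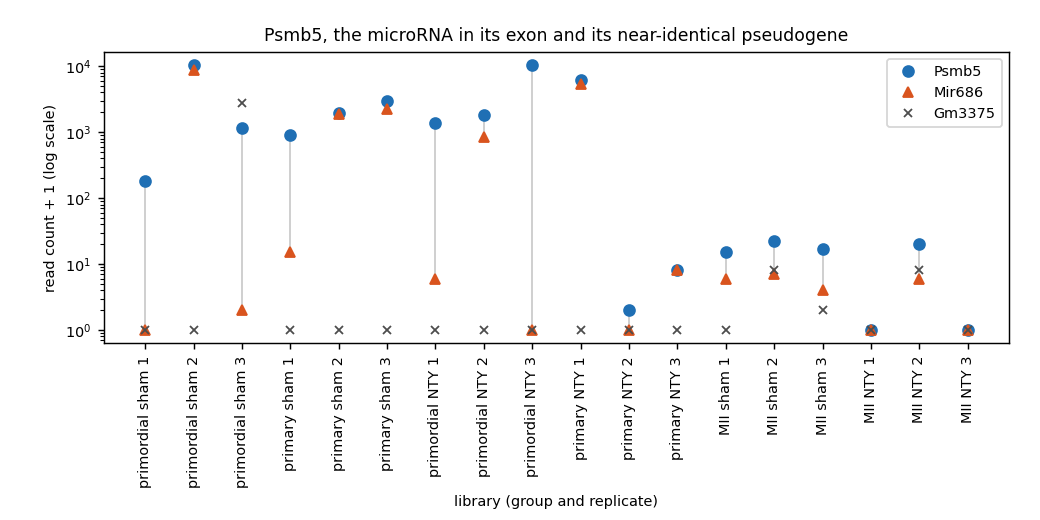
Counts of Psmb5 (circles), Mir686 (triangles) and Gm3375 (crosses) in the 18 libraries, as read count + 1 on a log scale. Mir686 nearly meets Psmb5 in primordial sham 2 and primary NTY 1 (8708 and 5374 counts) and is at 0 in primordial NTY 3, where Psmb5 has 10309 counts.

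The catalytic subunits of the immunoproteasome, which replace the standard ones in cells of the immune system or under interferon, were near the floor. Psmb8 and Psmb9 had no read in any MII library and at most 37 and 60 counts elsewhere, in primary sham 1 and primary sham 3. Psmb10 had 422 counts (34.9 TPM) in primordial NTY 2, 20 counts in MII sham 2 and at most 15 in any other library. Psmb11, the catalytic subunit of the thymus, had 63 counts (3.79 TPM) in MII NTY 2 and at most 3 elsewhere. Of the 6 interferon and MHC class I genes on a fixed list, the sums were 0.348 to 437.8 TPM in microdissected libraries and 32.2 to 61.1 TPM in MII. Single genes carried much of these sums. B2m had 24.2 to 50.3 TPM in MII, where Tap1 had no read, and Irf1 reached 409 TPM in the microdissected libraries. The 10 immune cell markers sum to at most 26.9 TPM in microdissected libraries and to 36.2 to 115 TPM in MII, where H2-Aa (28.0 to 99.8 TPM), Csf1r (8.20 to 23.9 TPM) and Cd68 (0.0 to 14.2 TPM) carry most of the sum, Cd74 has at most 13 counts and the other 6, among them Ptprc, the pan-leukocyte antigen, have at most 3 counts in every library.

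Among the ATPases of the 19S base, Psmc5 was the highest in MII at 29.2 to 100.2 TPM and Psmc2 the lowest at 0.0582 to 4.06 TPM. The 6 ATPase genes together came to 61.1 to 217.5 TPM in MII and to 784 to 2539 TPM in the microdissected libraries. Psmc3 was the one proteasome gene whose 6 MII values, 3.45 to 26.1 TPM, were all below its lowest microdissected value of 41.7 TPM. That is 2.22% of the 45 proteasome genes with at least 1 TPM in at least 3 libraries, against 2.83% of all 14965 such genes. Of the base subunits that hold the cap together or bind ubiquitin, Psmd4 had 106 to 315 TPM in MII, Psmd1 143 to 234 TPM and Psmd2 34.9 to 180 TPM.

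The lid, which carries the deubiquitinase, was uneven. Psmd11 (89.0 to 196 TPM), Psmd7 (78.5 to 137 TPM) and Psmd3 (40.0 to 201 TPM) were its highest genes in MII. Psmd14, the deubiquitinase itself, had 0.336, 6.65 and 6.42 TPM in MII sham and 2.49, 1.02 and 0.104 TPM in MII NTY, and Psmd13 at most 1.68 TPM. Psmd7, the partner that pairs with Psmd14 in the complex, was therefore far above it in all 6 MII libraries. In microdissected libraries Psmd14 ranged from 0.0 to 580 TPM and Psmd13 from 0.0 to 348 TPM.

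A few assembly chaperones were higher in MII than in any microdissected library. Psmg1, which with Psmg2 forms the pair that starts the alpha ring, had 148, 155 and 185 TPM in MII sham and 208, 122 and 88.8 TPM in MII NTY. It had 405 to 956 counts there, against at most 7 in any microdissected library. Its partner Psmg2 did not follow, with 0.0 to 3.75 TPM in MII. Psmg3 had 1.94 to 18.4 TPM in MII and at most 0.193 TPM elsewhere. It is, however, identical over 238 bases to the annotated gene Gm26938, which had up to 1658 counts in microdissected libraries. Of the chaperones of the 19S base, Psmd9 had 32.7 to 80.5 TPM in MII against at most 19.7 TPM elsewhere, and Psmd10 and Psmd5 overlapped between the sets. Psmc3ip, the recombination cofactor, had 22.5 to 39.6 TPM in MII and at most 13.9 TPM elsewhere. These 4 genes, Psmc3ip, Psmd9, Psmg1 and Psmg3, are 8.89% of the 45 counted, against 23.3% of all genes whose 6 MII values lay above all microdissected values.

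The activators divided by family. Psme1 and Psme2, the PA28 alpha and beta subunits that partner the immunoproteasome, were at or near 0 in MII. Psme1 had no read in any of the 6 libraries and Psme2 at most 10 counts. Psme3, the nuclear PA28 gamma, had 60.6 to 137 TPM and Psme4, which builds the PA200 activator, 48.7 to 101 TPM. In microdissected libraries Psme1 had a median of 53.1 TPM and a highest value of 256 TPM, and Psme2 144 and 1925 TPM. Psme2b, 99.4% identical to Psme2 over 794 bases, had no count in any library. Psmf1, the inhibitor of the core, had 7.61 to 31.7 TPM in MII.

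**Figure D4:**
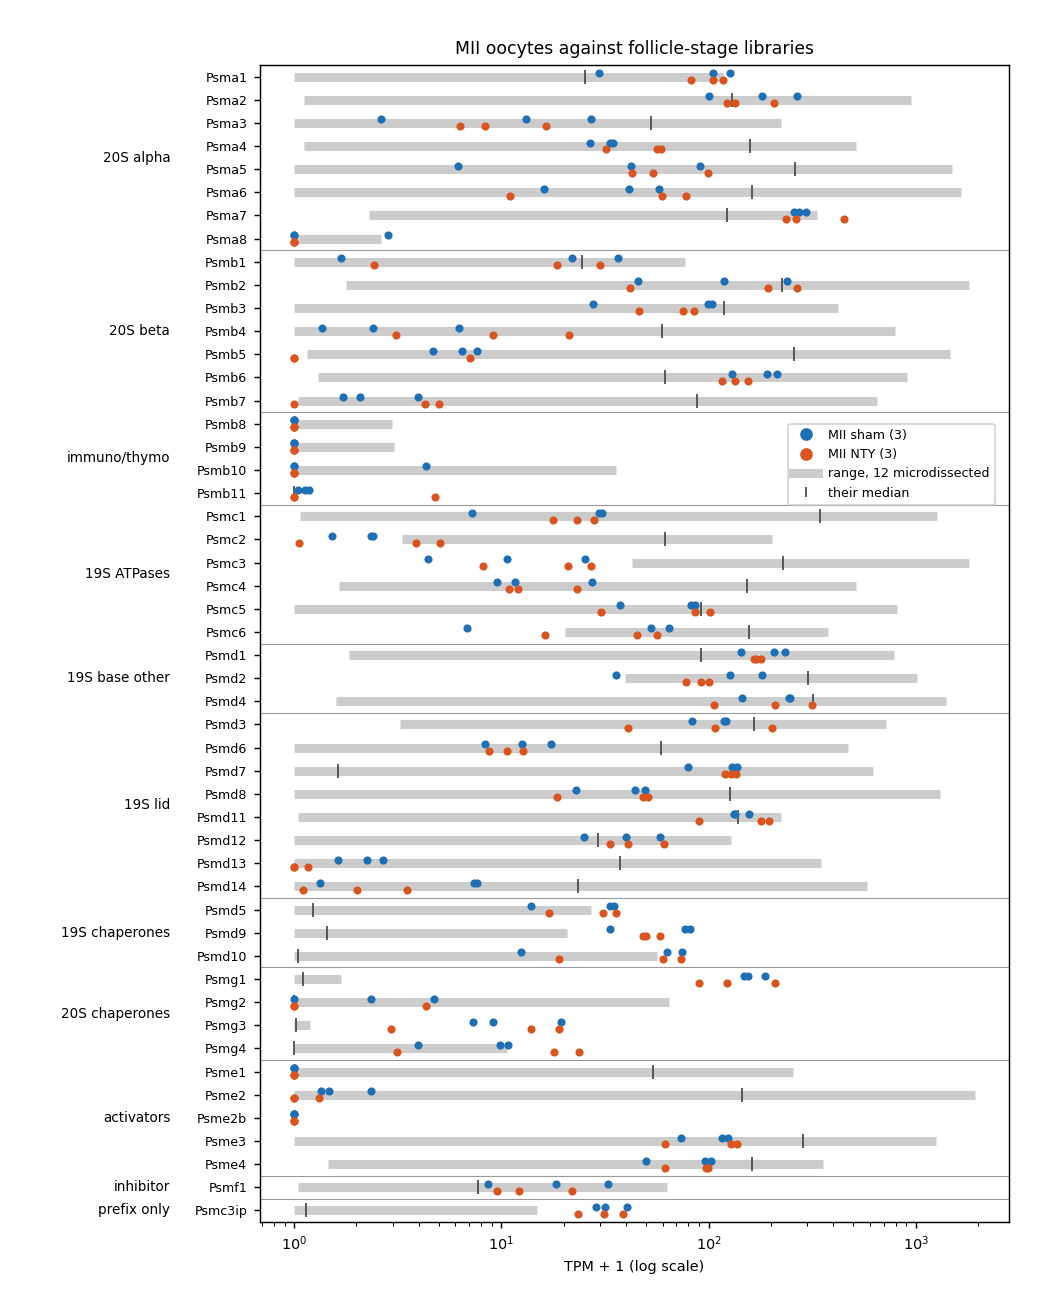
Levels in MII oocytes and early follicle libraries. Each row is a gene, with dots for the 3 sham and 3 NTY MII libraries, a grey bar for the range and a tick for the median of the 12 microdissected libraries, on a log axis of TPM + 1. The MII dots of Psmg1, Psmg3, Psmd9 and Psmc3ip lie to the right of the grey bar, those of Psmc3 to its left, and those of Psme1 at 0 TPM.

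In MII oocytes no proteasome gene passed the test for NTY against sham (edgeR's quasi-likelihood test, Benjamini-Hochberg adjusted p under 0.05, over 12209 genes, of which 0.0% passed). None of the 40 proteasome genes tested had an unadjusted p under 0.05 (2.29% of all genes did), DESeq2 called none of the 40 (0.238% of all genes), and so did voom with quality weights (0.0%). Here and below, groups are said not to overlap, or to lie wholly higher or lower, on CPM (counts scaled to library size with TMM factors) unless TPM is named. On that scale sham and NTY overlapped for every one of the 40 (2.63% of all genes lay wholly higher in NTY and 5.72% wholly lower). Their median log2 fold change was 0.07, against 0.00 for all genes, and 25 of 40 were above 0 (62.5%, against 50.3% of all genes). Among the 33 with a mean of at least 10 CPM, the log2 fold changes ran from -0.40 to 0.65, and 30 lay within 0.5 of 0. The standard errors of these 33 genes, with a median of 0.44, show what the test could resolve. For the catalytic genes the log2 fold changes were -0.33 (SE 0.31, adjusted p = 1.0) for Psmb6, -1.44 (SE 1.78, adjusted p = 1.0) for Psmb5 and 0.41 (SE 1.62, adjusted p = 1.0) for Psmb7 by edgeR. That of Psmb5 was -7.01 without MII NTY 2, -0.87 without MII NTY 1 and -0.88 without MII NTY 3. That of Psmb6 was -0.17 without MII NTY 2 and -0.54 without MII NTY 3. That of Psmb7 turned to -0.39 with a replicate block and to -0.25 without MII NTY 1, and was 0.01 to 1.56 with another library left out. Psmb8, Psmb9 and Psmb10 were too low to test.

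In primary follicles several subunits were high in all 3 sham libraries and almost without reads in NTY, but none passed edgeR's test. Psma6, an alpha subunit at chr12:55384222-55418454, had 8581, 15423 and 11797 counts in sham and 6, 0 and 0 in NTY. Psmb3, a beta subunit at chr11:97703399-97713500, had 2408, 5569 and 1546 counts in sham and 0, 0 and 1 in NTY. Psmd7, the lid subunit at chr8:107580381-107588464, had 6538, 10605 and 6040 counts in sham and 4, 1 and 7 in NTY. The groups did not overlap for any of the 3 genes. The log2 fold changes, NTY over sham, were -12.14 for Psma6 (SE 3.53), -12.58 for Psmb3 (SE 4.08) and -10.61 for Psmd7 (SE 3.88), with an adjusted p of 0.50 each by edgeR. DESeq2 gave adjusted p-values of 8.28e-06, 0.000182 and 0.00524. Psmd10, a 19S chaperone, had 565, 134 and 76 counts in sham and no read in NTY, and was the other gene that DESeq2 called.

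These 3 subunits were not steadily high or low outside those groups. In primordial follicles Psma6 had 463, 9705 and 1921 counts in sham and 2724, 39 and 0 in NTY, Psmb3 had 0, 3463 and 3295 and then 6465, 3766 and 0, and Psmd7 had 5024, 0 and 0 and then 13, 3289 and 0. Psmd7 thus had libraries without a read in both primordial groups. In MII all 3 were present in every library, at 42 to 323, 260 to 800 and 579 to 1306 counts.

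**Figure D5:**
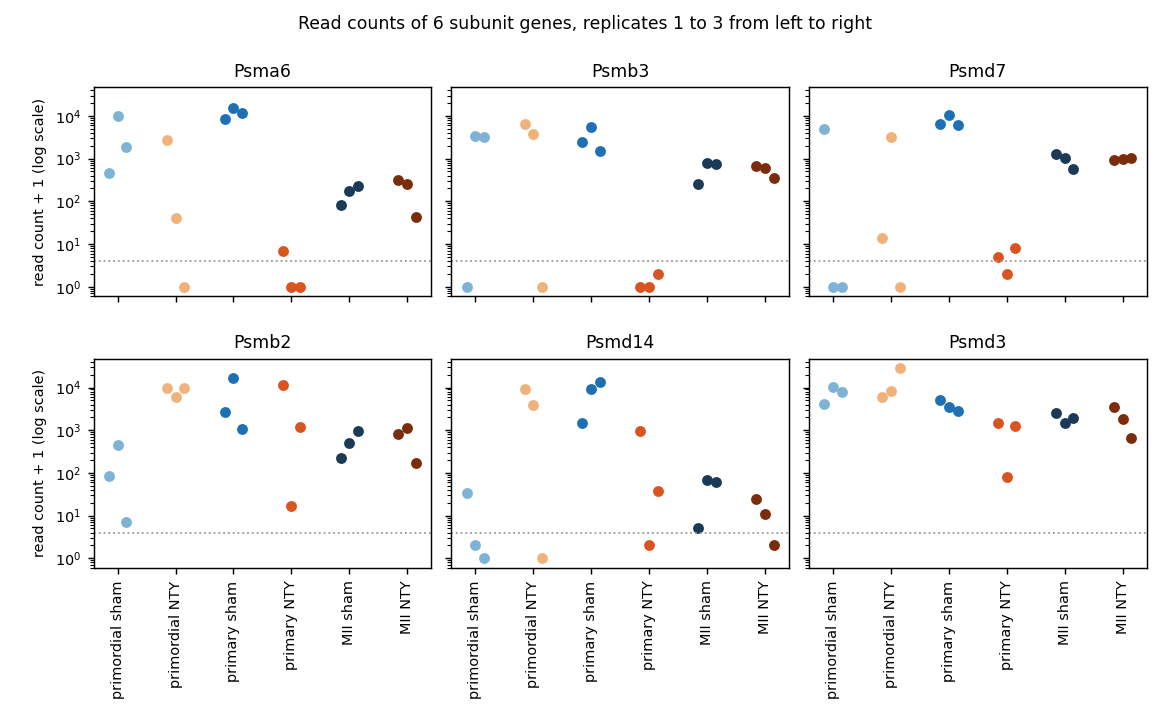
Read counts of 6 subunit genes by group, as count + 1 on a log scale, with 3 dots per group for replicates 1 to 3 and a dotted line at 3 counts. Psma6, Psmb3 and Psmd7 are high in primary sham and at 7 counts or fewer in primary NTY, Psmb2 is at 454 counts or fewer in primordial sham, and the MII groups of all 6 genes overlap.

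Over all 41 proteasome genes tested in primary follicles, edgeR called 0 (0.0% of 10522 genes), and 5 had an unadjusted p under 0.05 (12.2%, against 8.15% of all genes). DESeq2 called 4 (9.76%, against 6.59%) and voom with quality weights 2, Psma6 and Psmb3 (4.88%, against 0.637%). In NTY 7 genes lay wholly below sham (17.1%, against 11.6% of all genes), namely Psma6, Psmb3, Psmd3, Psmd7, Psmd10, Psmd14 and Psmg4, and 1 wholly above, Psma7 (2.44%, against 2.27%). Psma7 had 583, 30 and 3905 counts in sham and 2927, 7326 and 3409 in NTY. In TPM the groups overlapped, at 1.29 to 158 TPM in sham and 120 to 334 TPM in NTY, and they parted only on CPM with TMM factors. The log2 fold change was 2.30 (SE 2.38, adjusted p = 1.0 by edgeR), or 4.54 without primary sham 3. On TPM 8 genes lay wholly below and 0 above (13.7% and 1.25% of all genes), also counted after the data were seen. The median log2 fold change was -0.09, against -0.10 for all genes. With primary NTY 2 and 3 summed into 1 library, 9 genes lay below and 3 above (13.7% and 8.91% of all genes), which was counted after the data were seen.

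In primordial follicles Psmb2 showed the clearest separation, again without passing edgeR's test. This beta subunit gene (chr4:126677630-126709714) had 83, 454 and 6 counts in sham and 9689, 5892 and 9489 in NTY, which is 14.6, 44.3 and 0.774 TPM against 1200, 690 and 999 TPM. Its log2 fold change was 5.77 (SE 2.43, adjusted p = 0.405 by edgeR, 0.0147 by DESeq2). A further 2 genes lay wholly above sham with at least 10 CPM. Psma1 had 179, 542 and 514 counts and then 891, 908 and 2721, and Psmd2 3288, 1325 and 2505 and then 6524, 7171 and 11108. Their log2 fold changes were 2.08 (SE 2.88, adjusted p = 0.881) and 1.68 (SE 1.5, adjusted p = 0.752) by edgeR, and without primordial NTY 3 they were 0.89 and 0.99. Psmd14 had 32, 1 and 0 counts in sham and 9058, 3896 and 0 in NTY, so that the groups overlapped through primordial NTY 3.

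Of the 41 proteasome genes tested in primordial follicles edgeR called 0 (0.0095% of 10522 genes), 4 had an unadjusted p under 0.05 (9.76%, against 10.9%) and DESeq2 called 3, Psmb2, Psmd10 and Psmd14 (7.32%, against 11.4%), and voom 0 (0.0%). In NTY 4 lay wholly above sham (9.76%, against 5.44%) and 0 wholly below (2.97%). Without primordial NTY 3, the library almost without oocyte markers, 9 lay above and 1 below (16.1% and 3.88% of all genes). The median log2 fold change was 0.56, against 0.12 for all genes, and 27 of 41 were above 0 (65.9%, against 51.7%). It was -0.11 without primordial NTY 1 (all genes -0.12), 0.60 without primordial sham 2 (all genes 0.88) and 0.36 with a replicate block (all genes 0.39). The granulosa cell markers sum to 380, 671 and 2221 TPM in primordial sham and to 2017, 3923 and 3451 TPM in primordial NTY, and the oocyte markers to 368 to 2120 TPM and 3.92 to 695.5 TPM. Their part in these results was not tested.

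Primary against primordial follicles gave no call by edgeR in either treatment. In sham, Psmd14 had 1441, 9159 and 13144 counts in primary and 32, 1 and 0 in primordial follicles (log2 fold change 8.67, SE 3.41, adjusted p = 0.473 by edgeR, 0.0270 by DESeq2), which was 13.44 without primordial sham 1. Psmb2 had 2702, 16464 and 1073 counts in primary follicles and was higher by a log2 fold change of 5.23 (SE 2.37, adjusted p = 0.482 by edgeR), or 3.0 without primary sham 2, and Psmd2 by 1.88 (SE 1.51, adjusted p = 0.903). Lower in primary follicles without overlap were Psmd3, a lid subunit, by -1.35 (SE 1.67, adjusted p = 1.0) and Psmd4, a ubiquitin receptor, by -0.69 (SE 1.63, adjusted p = 1.0), or -0.42 without primary sham 2. In TPM Psmd4 overlapped, at 111 to 339 TPM in primary and 297 to 347 TPM in primordial follicles. In all, 5 of 41 lay wholly higher (12.2%, against 12.5%) and 2 wholly lower (4.88%, against 1.74%), and on TPM 7 and 1 (13.8% and 1.29% of all genes). By edgeR 0 were called (0.0095%) and 3 had an unadjusted p under 0.05 (7.32%, against 9.28%), while DESeq2 called 1 (2.44%, against 7.29%) and voom 0 (1.36%). This comparison shares its libraries with those of NTY against sham.

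In NTY the one gene with reads in all 6 libraries and a wide separation was Psmd3, with 6026, 8264 and 27968 counts in primordial and 1451, 80 and 1222 in primary follicles. Its log2 fold change, primary over primordial, was -4.23 (SE 1.88, adjusted p = 0.453 by edgeR, 0.0117 by DESeq2), and -2.8 without primordial NTY 3. Psma1 was also lower without overlap (-6.25, SE 3.48, adjusted p = 0.565 by edgeR, and -11.76 without primary NTY 2). Psme4 (2.16, SE 1.63, adjusted p = 0.720), Psmb1 (1.90, SE 2.86, adjusted p = 0.911) and Psma7 (1.05, SE 2.30, adjusted p = 0.949, all by edgeR) were higher without overlap. Psma7 overlapped in TPM, at 72.9 to 142 TPM in primordial and 120 to 334 TPM in primary follicles, and its log2 fold change was 0.20 without primary NTY 2. That makes 3 of 41 wholly higher (7.32%, against 3.23%) and 2 wholly lower (4.88%, against 4.61%), and on TPM 2 and 2 (2.28% and 5.16% of all genes). Without primordial NTY 3 the numbers were 5 and 8 (4.42% and 14.4% of all genes). By edgeR 0 were called (0.0%) and 5 had an unadjusted p under 0.05 (12.2%, against 9.97%), while DESeq2 called 4 (9.76%, against 10.7%), namely Psma1, Psma6, Psmb3 and Psmd3, and voom 0 (0.019%).

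The NTY effect in primary minus that in primordial follicles was called for 0 of 41 proteasome genes by edgeR (0.0095% of all genes). An unadjusted p under 0.05 was found for 6 (14.6%, against 11.8%), and DESeq2 called 3 (7.32%, against 11.6%), namely Psma6, Psmb3 and Psmd14, and voom 0 (0.219%). Their median difference was -0.76 on the log2 scale, against -0.56 for all genes. The spread between replicates bounds all of these tests. The common dispersion was 3.59 in the microdissected set and 0.542 in MII, and the median standard error of a log2 fold change among the proteasome genes was 2.35 in primordial and 2.38 in primary follicles, for NTY against sham, against 0.48 in MII.

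Genes that work with the proteasome were taken from 3 lists. They held 20 proteasome-associated factors, 10 genes for ubiquitin, its activating enzymes and the segregase p97 with its partners, and 8 regulators of transcription. The third list held the transcription factors Nfe2l1, Nfe2l2, Nrf1, Maff, Mafg, Mafk and Bach1, and Keap1, which is not a transcription factor. Of the 3 lists, 20, 10 and 6 genes were tested in the microdissected libraries and 20, 9 and 7 in MII, and edgeR called 0 in each of the 6 comparisons. Unadjusted p-values under 0.05 numbered at most 2 per list and comparison. In MII, 2 of 7 genes of the third list, Bach1 and Mafk, had one, as did 2.29% of all genes. DESeq2, which called 11.4% of all genes in primordial follicles for NTY against sham, called there Adrm1, a ubiquitin receptor, Ubqln1, a shuttle for ubiquitinated proteins, and Ufd1, a partner of p97, of which 2 were higher and 1 lower in NTY. For primary against primordial follicles in sham it called Ubqln1, Ufd1 and Mafk (7.29% of all genes), and for the change of the NTY effect with stage Adrm1, Ubqln1 and Ufd1 (11.6%). Ubb, which encodes ubiquitin, was higher in each microdissected library, at 3418 to 16800 TPM, than in MII, at 198 to 768 TPM. Nfe2l1, the transcription factor that restores proteasome genes when proteolysis is blocked, had 97 to 544 TPM and 14.6 to 47.2 TPM, whereas Ddi2, the protease that activates it, had 0.155 to 341 TPM and 106 to 158 TPM. Pomp, the maturation factor of the core, had at most 2.05 TPM in microdissected libraries and 2.88 to 23.7 TPM in MII. Such a placing of MII above all microdissected values was found for 23.3% of all genes with at least 1 TPM in at least 3 libraries. Akirin2, which brings proteasomes into the nucleus, was by its median the highest of the associated factors in MII at 145 to 448 TPM.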

How the data were processed

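RNA sequencing was available for 18 mouse oocyte libraries, grouped by their labels. The deposited files hold raw read counts for 53715 genes and TPM values for 28252 of them, which sum to 1000000 per library. Per the submitters' processing notes, the authors used Trim Galore 0.4.1, TopHat2, featureCounts and mm10, and the annotation, strand setting and treatment of multiply mapped reads are not given in the sources used here. Counts were tested with edgeR 4.0.16 in R 4.3.3 (quasi-likelihood test, TMM, filterByExpr, robust, Benjamini-Hochberg adjusted p under 0.05), with the 12 microdissected libraries in a shared fit and the 6 MII libraries alone. MII was not tested against the other stages. Standard errors were taken from the F statistic.

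Alternatives were RLE scaling, DESeq2 1.42.0 without its filters, limma 3.58.1 (voom with quality weights, and log2(TPM + 1)), other count filters, the groups compared alone, a replicate block, a summed library and leaving out each replicate. Counts were also simulated with the common dispersion of each set for every gene. There edgeR recovered 0 of 200 genes changed by a log2 fold of 3 among 10522 genes of early follicles, and 24 of 200 among 12209 in MII. DESeq2 recovered 24 of 200 in early follicles with 252 false calls. The genes' own dispersions were not used, so these numbers do not give the power for the proteasome genes.

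The genes, lists and tests were chosen with earlier results of these data known. A log2 fold change was given for genes past the threshold, for up to 3 genes per direction with no overlap and a mean of at least 10 CPM, and for the catalytic genes in MII. Psmd14, Psmd10 and the genes named with counts only were chosen by their role or after their values were seen. Near-identical copies (at least 95% identity over 100 bases, BLAST 2.17.0) were found for 14 of 50 genes, and coordinates came from GENCODE M21. The 14 are Psma3, Psma4, Psma5, Psmb3, Psmb5, Psmb11, Psmc1, Psmd1, Psmd2, Psmd8, Psmd11, Psme2, Psme2b and Psmg3. Psmd11, for instance, is 98.0% identical over 1269 bases to the pseudogene Gm14048, which had up to 157 counts in MII.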

Additional observations from a re-analysis of the deposited data

How the results depend on the processing

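The number of proteasome genes called was 0 by edgeR in all 6 comparisons and under every alternative but DESeq2 and voom. DESeq2 called 3 for NTY against sham in primordial follicles (7.32%, against 11.4% of all genes) and 4 in primary follicles (9.76%, against 6.59%). For the change of that effect with stage it called 3 (7.32%, against 11.6%). For primary against primordial follicles it called 1 in sham (2.44%, against 7.29%) and 4 in NTY (9.76%, against 10.7%). With voom and quality weights 2 were called for NTY against sham in primary follicles, where it called 0.637% of all genes. The median log2 fold change moved by more than the spread between replicates in 3 cases. For NTY against sham in primary follicles it moved to -1.90 with voom (all genes -1.65). For primary against primordial in sham it moved to 1.09 under voom (all genes 1.94) and to 1.13 under the TPM-based limma fit (all genes 0.94). The cause was not tested. Of single genes, Psmb7 in MII turned to a log2 fold change of -0.39 with a replicate block and, with 1 MII replicate left out at a time, ranged from -0.25 (without MII NTY 1) to 1.56. No other gene named with a fold change changed its direction under the alternatives run, and the calls gained were those of DESeq2 and voom. On TPM in place of CPM, a scale added after seeing the data, Psma7 no longer lay apart in primary follicles or between NTY stages, nor Psmd4 between sham stages. With 1 library left out, the median in primordial follicles for NTY against sham ranged from -0.11 (all genes -0.12) to 1.14 (all genes 1.0). That in primary follicles ranged from -0.88 (all genes -1.05) to 0.31 (all genes -0.04).

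With a replicate block 0 proteasome genes were called in each comparison. Their median log2 fold change for NTY against sham was 0.36 in primordial follicles (all genes 0.39), -0.30 in primary follicles (all genes -0.75) and 0.04 in MII (all genes -0.13). The deviations of libraries with the same number correlated between -0.063 and 0.0657, so the numbers were not taken to pair the libraries. Requiring 10 counts throughout a comparison left 15, 17 and 33 proteasome genes in these 3 comparisons, and under it Psma6, Psmb3 and Psmd7 could not be fitted in early follicles, nor Psmb2 in primordial follicles.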

Other observations

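The core of the antioxidant response element, TGACNNNGC on either strand, was searched in the promoters (250 bases before to 50 after the start, RefSeq, GRCm38.p6) of the 42 proteasome genes with an entry. It was present in 6 (14.3%), against 14.0% of the 27025 genes with a promoter entry. The genes were Psmb5, Psmb6, Psmc6, Psmd9, Psmd12 and Psme4. The 60 bases around it are shown for the catalytic genes Psmb5 and Psmb6, which differ widely in MII, and for Psmd9, a chaperone that is higher there, with the motif in capitals.
Psmb5 (chr14:54618003-54618062, minus strand): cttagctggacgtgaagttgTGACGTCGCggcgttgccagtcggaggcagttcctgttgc
Psmb6 (chr11:70525297-70525356, plus strand): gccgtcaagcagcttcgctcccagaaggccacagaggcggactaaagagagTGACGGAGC
Psmd9 (chr5:123228130-123228189, plus strand): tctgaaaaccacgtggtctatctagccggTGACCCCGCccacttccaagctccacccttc
A match is a description of these letters. The motif stood in a gene that is low in MII and in genes that are high there.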
